A study of Mus musculus with 58 samples.

Results

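A set of 10 genes, listed as markers of committed preadipocytes (ASC1), was followed across the deposited RNA-seq libraries of mouse inguinal white adipose tissue. The 10 genes, Icam1, F3, Clec11a, Fmo2, Apod, Sparcl1, Vit, Hsd11b2, Steap4 and Gpc3, were taken by name, and each was found as 1 Ensembl gene among the 56953 genes of the count table. Of these, 9 (all but Hsd11b2) had enough reads to be tested (at least 5 reads in more than 3 libraries), as did 12464 genes in all. The libraries came from adipose stem cells (ASC) of C57BL6/J mice, which were sorted from the stroma of the depot as CD45-/CD31-/CD34+ cells and divided by DPP4 on the cell surface into DPP4- cells (ASC1) and DPP4+ cells (ASC2). The mice were males or females, either age-matched controls or gonadectomized at 4 weeks of age (castrated males and ovariectomized females). All were killed at 10 weeks. The 58 libraries fall into 8 groups. ASC1 was represented by 7 control male, 8 castrated male, 8 control female and 3 ovariectomized female libraries, and ASC2 by 8 libraries in every treatment group. The question here was how the levels of the 10 genes differed between ASC1 and ASC2 within each of the 4 treatment groups, and how surgery and sex label bore on them.

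White adipose tissue grows and renews itself from fibroblast-like progenitors in its stroma. Progenitors that carry DPP4 are held to be early and multipotent and lie in the connective tissue around the depot. Cells that lack DPP4 and carry ICAM1 or tissue factor are held to be more committed and lie closer to the fat cells. The study gives Clec11a and Fmo2 as markers of ASC1b, a part of the DPP4- cells. It cites work in which ASC1b cells, sorted by tissue factor, readily formed fat cells, and other work in which they inhibited fat cell formation. The 10 genes cover several kinds of protein. Icam1 encodes a cell surface ligand of leukocyte integrins, F3 encodes tissue factor (CD142), the receptor that starts blood coagulation, Steap4 encodes a membrane metalloreductase of iron and copper, and Gpc3, a gene of the X chromosome, encodes a glypican, a heparan sulfate proteoglycan anchored in the membrane. Clec11a (osteolectin), Apod (apolipoprotein D, a lipocalin that carries small lipids), Sparcl1 (a matricellular relative of SPARC) and Vit (vitrin, an extracellular matrix protein) encode secreted proteins. Fmo2 encodes a flavin-containing monooxygenase and Hsd11b2 the enzyme that inactivates glucocorticoids.

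Because F3, Steap4 and Gpc3 are the cell surface members with the strongest contrasts below, their promoters are shown, each from 250 bases before to 50 bases after the gene's start, as RefSeq gives them for build GRCm38.p6. Steap4 lies at chr5:7960222-7960521 on the plus strand, F3 at chr3:121723287-121723586 on the plus strand and Gpc3 at chrX:52613925-52614224 on the minus strand. Capitals mark matches, on either strand, to the motifs searched, each of which is spelled out after the sequences. No matches overlap.
Steap4: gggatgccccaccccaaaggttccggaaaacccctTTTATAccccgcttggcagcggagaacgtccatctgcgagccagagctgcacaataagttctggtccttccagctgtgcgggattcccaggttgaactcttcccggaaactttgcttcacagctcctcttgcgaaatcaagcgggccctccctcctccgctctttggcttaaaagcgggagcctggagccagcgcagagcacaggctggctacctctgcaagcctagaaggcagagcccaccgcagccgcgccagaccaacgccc
F3: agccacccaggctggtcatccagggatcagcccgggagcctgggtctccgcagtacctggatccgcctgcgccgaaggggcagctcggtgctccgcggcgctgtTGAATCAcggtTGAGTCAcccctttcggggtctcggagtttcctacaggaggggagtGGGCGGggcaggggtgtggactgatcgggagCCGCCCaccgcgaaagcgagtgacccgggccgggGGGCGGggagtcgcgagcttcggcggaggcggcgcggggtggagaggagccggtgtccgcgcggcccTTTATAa
Gpc3: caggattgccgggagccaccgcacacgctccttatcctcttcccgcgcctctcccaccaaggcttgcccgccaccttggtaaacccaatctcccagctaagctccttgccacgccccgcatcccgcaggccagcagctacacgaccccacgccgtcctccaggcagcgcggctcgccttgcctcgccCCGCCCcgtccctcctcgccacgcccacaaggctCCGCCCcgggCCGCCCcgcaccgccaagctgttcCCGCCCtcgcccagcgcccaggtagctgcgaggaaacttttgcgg

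The F3 and Gpc3 promoters were rich in G and C (70.3% and 70.7% of bases, against a median of 52.7% over all 32851 promoters of the table), and the Steap4 promoter had 60.3%. They held 32, 30 and 16 CpG dinucleotides respectively. F3 held 2 matches to TGANTCA, the letters bound by AP-1, which 7.81% of all promoters of the same length hold, and 3 matches to GGGCGG, the letters bound by Sp1, which 35.7% hold. Gpc3 held 4 matches to these Sp1 letters. The TATA box letters TATAAA, held by 13.6% of all promoters, matched once in Steap4, F3 and Icam1.

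Of the other members in the promoter table (Icam1, Clec11a, Fmo2 and Apod), Fmo2 held the only match to TGTTCT, which is the core letters of glucocorticoid, androgen and progesterone receptor elements and which 19% of promoters hold. TTGCNNCAA (2.08% of promoters, the C/EBP letters), CACGTG (7.15%, the E-box) and the NF-kappaB motif (0.411%) matched in none of the 7 members with a promoter in the table. These matches are letters in a window and say nothing about binding.

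Before the comparisons, several properties of the libraries have to be stated. The total estimated counts ran from 106562 to 1421518 per library, with a median of 682400. Dpp4 followed the sort in each treatment group: its CPM (counts scaled to a common library size) lay at 0.872 to 14.1 in ASC1 against 121 to 343 in ASC2 of control males, at 1.28 to 47.3 against 49.2 to 215 in castrated males, at 6.01 to 42.1 against 92.3 to 489 in control females, and at 6.19 to 30.9 against 51.4 to 146 in ovariectomized females. The sex chromosome transcripts read were Xist of the inactive X, and Ddx3y, Eif2s3y, Uty and Kdm5d of the Y. They went against the sex label in 26 of the 58 libraries. In ASC1 these were 4 of 7 control male, 7 of 8 castrated male and 5 of 8 control female libraries, and in ASC2 4, 0 and 6 of 8. None was an ovariectomized female library. Castrated male ASC1 libraries held 13 to 97 Xist and 0 to 4 Y reads, and castrated male ASC2 libraries 0 to 5 and 21 to 75. In castrated males, population and sex transcripts therefore cannot be told apart. Tcf21, a transcription factor gene known as a marker of visceral and not inguinal adipose progenitors, was at 5 CPM or more in 23 of the 58 libraries: 3 of 7 control male, 6 of 8 castrated male, 6 of 8 control female and 0 of 3 ovariectomized female ASC1 libraries, against 0, 2, 2 and 4 of 8 ASC2 libraries. The groups are therefore named by their labels throughout, and the comparisons are also given without the Tcf21-containing libraries and without those whose sex transcripts go against the label. The latter leaves 3 control male, 1 castrated male and 3 control female ASC1 libraries. The castrated male value thus rests on a single ASC1 library, P, which is assumed to vary like the other groups. Library P itself held 13 Xist reads and 0 Y reads in 235098 counts. It was kept only because the cut was set at 20 Xist reads.

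The 3 ovariectomized female ASC1 libraries (L, N and P) stood apart from the other 55 in their mitochondrial share and fibroblast markers. Mitochondrial transcripts made up 1.55 to 3.42% of their counts, against 0.533 to 1.29% in the other libraries. Their 6 fibroblast markers summed to 47800 to 49500 CPM, against at most 19300 CPM elsewhere, and their 10 immediate early genes, which respond to cell stress and dissociation, summed to 3050 to 4310 CPM against 148 to 730 CPM in the other ASC1 libraries, although 1 control female ASC2 library reached 4170 CPM. None of the 7 mammary epithelium markers had a read in them, as in some ASC2 libraries of control and castrated males. Of the 3, 2 held fewer than 300000 counts (188591 and 256555, against 1114321 in the other). The part of these properties in the results below was not tested.

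**Figure D1:**
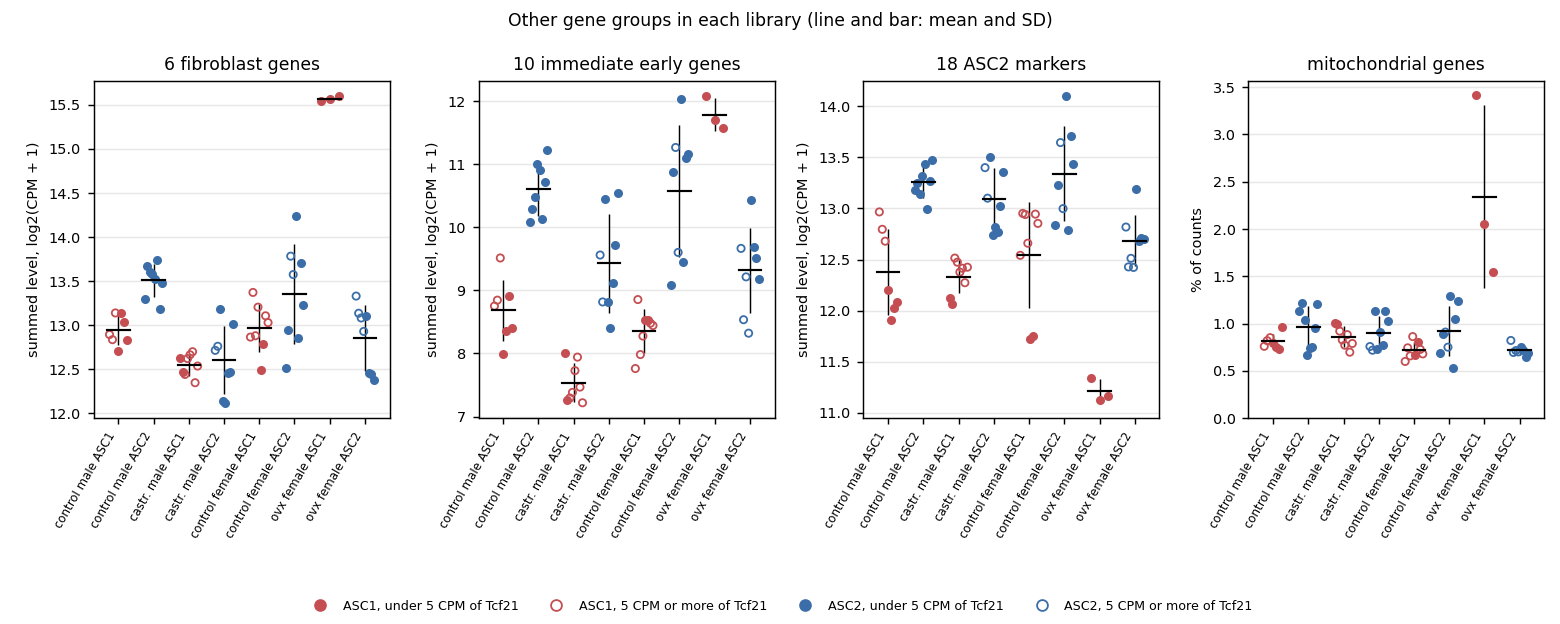
Checks of the libraries by group: summed CPM of 6 fibroblast markers, 10 immediate early genes and 18 ASC2 markers, and the percentage of counts in mitochondrial genes, with 1 point per library. The 3 ovariectomized female ASC1 libraries lie above all others for the fibroblast sum (47800 to 49500 CPM) and the mitochondrial share (1.55 to 3.42%).

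Across the 4 treatment groups, 6, 5, 5 and 7 of the 9 tested members differed between ASC1 and ASC2 in control males, castrated males, control females and ovariectomized females (edgeR's quasi-likelihood test, Benjamini-Hochberg adjusted over all genes tested). The shares of all tested genes that differed in these comparisons were 12.2%, 9.09%, 6.11% and 35.4%. Steap4 was the only member that passed the test as higher in ASC1 in all 4 groups. Fmo2, Clec11a and F3 passed as higher in ASC1 in 3 groups each, and their positive difference in the fourth did not pass. Gpc3 ran the other way, being lower in ASC1 in control males, castrated males and control females and higher only in ovariectomized females. Thus Gpc3, and Apod in control females, went against the label of the list as ASC1 markers. In bulk samples, fewer cells of a type and less RNA per cell cannot be told apart.

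**Figure D2:**
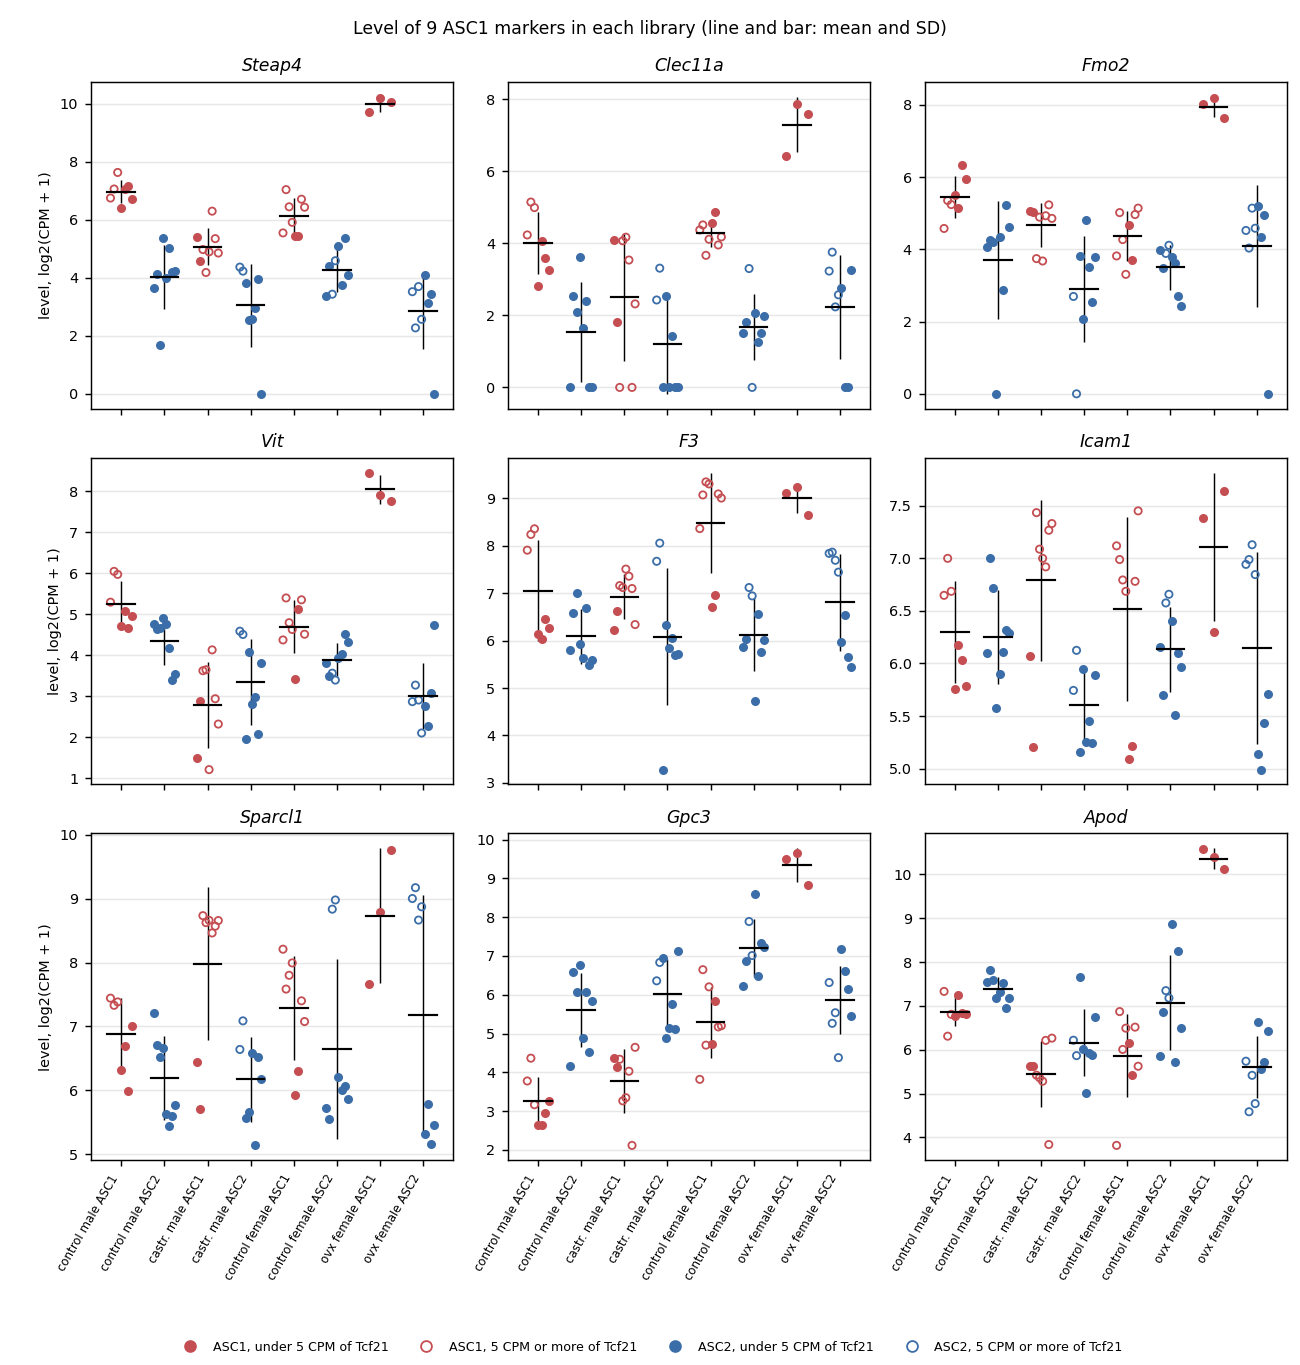
Level of each of the 9 tested members, as log2(CPM + 1), in the 58 libraries by treatment group and population; points are libraries, open circles are libraries with at least 5 CPM of Tcf21, and lines with bars are the mean and SD of a group. Steap4 lies higher in ASC1 in each treatment group, Gpc3 lies lower in ASC1 except in ovariectomized females, and the ovariectomized female ASC1 libraries hold the highest group mean of every member shown.

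Steap4 had the most regular difference. In control males its level was 84.6 to 198 CPM (median 133) in ASC1 and 2.20 to 40.2 CPM (median 16.9) in ASC2. In castrated males it was 17.2 to 77.9 CPM (median 29.6) in ASC1 and 0 to 19.7 CPM (median 9.95) in ASC2. The control males did not overlap, and 7 of the 8 castrated male ASC1 libraries lay above the highest ASC2 library. In control females Steap4 was 42.1 to 131 CPM (median 72.5) in ASC1 and 9.26 to 40.3 CPM (median 18.3) in ASC2. The ovariectomized female ASC1 libraries held 837, 1180 and 1070 CPM, against 0 to 16 CPM (median 8.80) in ASC2. Neither female comparison overlapped. Groups without overlap were found for 2.28% of tested genes in control males, 1.64% in castrated males, 1.13% in control females and 21.8% in ovariectomized females. The log2 fold changes were 2.85 (SE 0.34, adjusted p = 6.7e-09) in control males, 1.71 (SE 0.37, adjusted p = 0.00101) in castrated males, 1.89 (SE 0.33, adjusted p = 5e-05) in control females and 6.78 (SE 0.42, adjusted p = 1.04e-19) in ovariectomized females. For Steap4 without the Tcf21-containing libraries the log2 fold changes were 2.69, 1.99, 0.94 and 6.48, and the tests in castrated males and control females, with 2 ASC1 libraries left in each, were no longer passed. Without the libraries whose sex transcripts go against the label they were 3.19, 1.34, 1.42 and 6.78, passing in control males and ovariectomized females (1 castrated male ASC1 library left). The order of the group means was ovariectomized female, control male, control female and castrated male ASC1, each step larger than the spread, followed by the 4 ASC2 groups, whose neighbours did not differ beyond their spread.

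Gpc3 showed the opposite direction in 3 groups. In control males it was 5.21 to 19.6 CPM (median 7.96) in ASC1 and 16.9 to 107 CPM (median 60.8) in ASC2. In castrated males the levels were 3.33 to 24.0 CPM (median 16) and 28.7 to 139 CPM (median 67.1). These castrated male groups did not overlap, and those of control males overlapped only between 16.9 and 19.6 CPM. In control females Gpc3 was 13.1 to 99.2 CPM (median 35.4) in ASC1 and 74.1 to 385 CPM (median 139) in ASC2. The ovariectomized female ASC1 libraries held 727, 812 and 458 CPM, above all of the ASC2 libraries (19.8 to 143 CPM, median 57.3). The log2 fold changes of Gpc3 were -2.51 (SE 0.45, adjusted p = 6.57e-05), -2.35 (SE 0.42, adjusted p = 8.31e-05), -1.86 (SE 0.37, adjusted p = 0.000401) and 3.31 (SE 0.44, adjusted p = 1.49e-08) in the order of groups above. They kept their signs without the Tcf21-containing libraries (-3.11, -1.87, -2.06 and 2.81), where the tests in castrated males and control females were not passed, and without the libraries against their sex label (-2.34, -1.63, -2.41 and 3.31), where the same tests, that of castrated males with 1 ASC1 library, were not passed.

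F3 was higher in ASC1 in control males, control females and ovariectomized females. In control females it ranged from 103 to 650 CPM (median 525) in ASC1 and from 25.3 to 138 CPM (median 64.0) in ASC2, a log2 fold change of 2.46 (SE 0.42, adjusted p = 3.33e-05). The control male levels were 64.3 to 327 CPM (median 86.6) and 44.1 to 127 CPM (median 57.4), a difference of 1.21 (SE 0.42) that lay just inside the threshold (adjusted p = 0.0499). All 3 ovariectomized female ASC1 libraries (552, 606 and 403 CPM) lay above ASC2 (42.8 to 232 CPM, median 133; log2 fold change 1.88, SE 0.51, adjusted p = 0.00294). Castrated males overlapped widely (73.6 to 181 CPM, median 137, against 8.71 to 265 CPM, median 60.6; 0.36, SE 0.41, adjusted p = 0.666). F3 differed with Tcf21 in most groups. In control male ASC1 it was at 239 to 327 CPM in the Tcf21-containing libraries and 64.3 to 86.6 CPM in the others. In control female ASC1 the same split gave 328 to 650 and 103 to 124 CPM, and in ovariectomized female ASC2 173 to 232 and 42.8 to 92.3 CPM. The 2 kinds of library did not overlap in these groups, but they did in castrated male ASC1 (79.9 to 181 and 73.6 to 98.3 CPM). The F3 difference without the Tcf21-containing libraries was 0.03 in control males and 0.90 in control females, neither passing, and 3.04 in ovariectomized females, which passed. Among Tcf21-containing libraries alone F3 was lower in ASC1 of castrated males (log2 fold change -0.68). Leaving out the libraries against their sex label gave F3 differences of 1.77 in control males and 0.42 in control females, neither passing, and 1.88 in ovariectomized females, which passed. The control male F3 call was also lost with the library letter as a block (0.95) and without the libraries under 300000 counts (1.21). Without the latter the ovariectomized female call was lost as well (1.84, with 1 ASC1 library left).

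Among the 4 groups, Icam1 passed the test in castrated males. There it was at 35.8 to 172 CPM (median 131) in ASC1 and 34.8 to 68.8 CPM (median 47.7) in ASC2, a log2 fold change of 1.30 (SE 0.30, adjusted p = 0.00229). The levels in control males were 53.2 to 127 CPM (median 71.2) and 46.8 to 127 CPM (median 72.5), with a difference of 0.05 (SE 0.30, adjusted p = 0.946). ASC1 and ASC2 overlapped in every treatment group. In control females Icam1 was 33.2 to 174 CPM (median 109) in ASC1 and 44.7 to 100 CPM (median 69.1) in ASC2 (0.50, SE 0.29, adjusted p = 0.369). In ovariectomized female ASC1 the libraries held 166, 78.0 and 198 CPM, against 30.8 to 139 CPM (median 82.5) in ASC2 (0.77, SE 0.39, adjusted p = 0.12). The gene also moved with Tcf21. Icam1 was at 120 to 172 CPM in the 6 Tcf21-containing castrated male ASC1 libraries and at 35.8 to 66.4 CPM in the other 2. In control female ASC1 the split was 102 to 174 against 33.2 to 36.1 CPM, and in ovariectomized female ASC2 114 to 139 against 30.8 to 51.4 CPM. Without these libraries the castrated male difference was 0.18 and did not pass, whereas the ovariectomized female difference was 1.94 and passed. With the libraries against their sex label left out, Icam1 in castrated males (1.71, 1 ASC1 library) did not pass.

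Among the secreted members, Clec11a was low outside ovariectomized female ASC1, with at most 44 reads in a library. In control males it was at 6.10 to 34.4 CPM (median 15.6) in ASC1 and 0 to 11.2 CPM (median 2.71) in ASC2, and the log2 fold change was 2.61 (SE 0.58, adjusted p = 0.00125). In control females it was at 11.7 to 28.1 CPM (median 18.4) and 0 to 8.85 CPM (median 2.20), without overlap (2.55, SE 0.58, adjusted p = 0.00225). Castrated males had 0 to 17.0 CPM (median 7.31) and 0 to 8.92 CPM (median 0.855), a difference that did not pass (1.64, SE 0.64, adjusted p = 0.0939). The 3 ovariectomized female ASC1 libraries held 84.6, 234 and 192 CPM, from 74, 51 and 31 reads, against 0 to 12.5 CPM (median 5.33) in ASC2. Their difference was 4.75 (SE 0.60, adjusted p = 5.19e-09). Clec11a without the Tcf21-containing libraries was past the threshold in control females (3.32) and ovariectomized females (5.50) but not in control males (1.74). Without the libraries against their sex label it passed in control males (2.69) and ovariectomized females (4.74) but not in control females (2.26).

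Apod was the second member that did not follow the label of the list outside ovariectomized females. It was at 13.1 to 116 CPM (median 67.0) in control female ASC1 and at 51.7 to 464 CPM (median 130) in ASC2, lower in ASC1 by a log2 fold change of -1.33 (SE 0.33, adjusted p = 0.00576). The control male levels were 78.3 to 160 CPM (median 111) and 123 to 224 CPM (median 171), and those of castrated males 13.3 to 75.9 CPM (median 45.1) and 31.1 to 200 CPM (median 61.8). Both differences had the same sign but did not pass (-0.52, SE 0.33, adjusted p = 0.317; -0.76, SE 0.34, adjusted p = 0.163). The 3 ovariectomized female ASC1 libraries, at 1530, 1340 and 1110 CPM, held more Apod than any other library, and their ASC2 counterparts 23 to 98.4 CPM (median 49.1; 4.70, SE 0.41, adjusted p = 4.19e-14). In control females the difference was -1.67 without the Tcf21-containing libraries and -1.68 without those against their sex label, and passed in neither case.

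Vit had a small difference in control males and a large one in ovariectomized females. In control males it was at 24.4 to 65.0 CPM (median 33) in ASC1 and 9.44 to 29.0 CPM (median 24.1) in ASC2 (0.94, SE 0.31, adjusted p = 0.0371). In control females the difference had the same size but did not pass (9.63 to 41.1 CPM, median 25.2, against 9.5 to 22.0 CPM, median 13.6; 0.94, SE 0.34, adjusted p = 0.0869). Castrated males had few Vit transcripts in either population (1.31 to 16.5 CPM, median 6.52, against 2.90 to 23 CPM, median 9.89; -0.55, SE 0.39, adjusted p = 0.44). Vit reached 350, 239 and 217 CPM in the ovariectomized female ASC1 libraries, against 3.29 to 25.7 CPM (median 6.39) in ASC2, 38.6-fold higher (log2 fold change 5.27, SE 0.41, adjusted p = 4.28e-16). The control male difference did not pass without the Tcf21-containing libraries (0.42) or without those against their sex label (1.12), nor with the library letter as a block (0.95).

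Sparcl1 also passed the test in castrated males and in no other group. It was at 51.1 to 425 CPM (median 387) there and at 34.2 to 135 CPM (median 81.1) in ASC2, a log2 fold change of 1.99 (SE 0.51, adjusted p = 0.00642). In control males the levels were 62.2 to 173 CPM (median 127) and 42.4 to 147 CPM (median 72.3; 0.65, SE 0.52, adjusted p = 0.451). In control females they were 59.9 to 295 CPM (median 179) and 45.8 to 504 CPM (median 64.4; 0.05, SE 0.49, adjusted p = 0.982). The populations overlapped in all 4 groups. The ovariectomized female ASC1 libraries differed widely among themselves (201, 441 and 867 CPM) and were set against 34.6 to 576 CPM (median 229) in ASC2 (0.83, SE 0.64, adjusted p = 0.31). Sparcl1 separated the libraries with and without Tcf21 in these groups too. It was at 352 to 425 CPM in the Tcf21-containing castrated male ASC1 libraries and 51.1 to 86.2 CPM in the others, at 456 to 504 against 45.8 to 72.9 CPM in control female ASC2, and at 405 to 576 against 34.6 to 53.9 CPM in ovariectomized female ASC2. Without these libraries the castrated male difference was 0.06 and did not pass, and that of ovariectomized females was 3.53 and passed. Within the Tcf21-containing control female libraries Sparcl1 was lower in ASC1 (-1.22). With the libraries against their sex label left out, the castrated male difference of Sparcl1 (2.36, 1 ASC1 library) did not pass.

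Fmo2 was modestly higher in ASC1. In control males it was at 22.9 to 80.0 CPM (median 39.9) in ASC1 and 0 to 36.2 CPM (median 17.9) in ASC2 (1.35, SE 0.36, adjusted p = 0.00777). In castrated males the levels were 11.8 to 36.6 CPM (median 29.1) and 0 to 27.1 CPM (median 7.87; 1.38, SE 0.40, adjusted p = 0.0179). Both overlapped. The control female groups (8.90 to 34.3 CPM, median 21.5, and 4.4 to 16.3 CPM, median 11.9) did not pass the test (0.98, SE 0.40, adjusted p = 0.143). In ovariectomized female ASC1, Fmo2 reached 259, 289 and 198 CPM, against 0 to 35.5 CPM (median 22.5) in ASC2 (3.34, SE 0.42, adjusted p = 3.3e-09). Fmo2 was little affected by the removal of Tcf21-containing libraries, with log2 fold changes of 1.60 in control males and 1.35 in castrated males, although with 2 ASC1 libraries left the latter no longer passed. With the libraries against their sex label left out, the Fmo2 differences of control males (1.29) and castrated males (1.5, 1 ASC1 library) did not pass. The castrated male call of Fmo2 was also lost without the libraries under 300000 counts (1.29).

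Hsd11b2 was close to absent. No library held more than 4 reads of it, and it had a read in 1 of 7, 2 of 8, 4 of 8 and 3 of 3 ASC1 libraries and in 1, 2, 3 and 3 of 8 ASC2 libraries, in the order of groups above. The 3 ovariectomized female ASC1 libraries had 1 to 3 reads each (3.43, 4.59 and 12.4 CPM). With no filter on low counts its difference there was 3.15 (SE 1.18) and did not pass (adjusted p = 0.0613), nor did it in any other group. A difference in Hsd11b2 was not detectable at this depth.

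Averaged over the 4 treatment groups with equal weight, all 9 tested members passed the test (20.3% of all tested genes did), 8 higher in ASC1 and Gpc3 lower. The largest mean differences were those of Steap4 (3.31, SE 0.18, adjusted p = 6.84e-22) and Clec11a (2.89, SE 0.30, adjusted p = 2.65e-11). Fmo2 (1.76), Vit (1.65) and F3 (1.48) followed, with Sparcl1 at 0.88 and Icam1 at 0.65. This average carries the ovariectomized female group at the same weight as the others, and it covers changes of sign. Apod had a mean of 0.52 (SE 0.18, adjusted p = 0.029) although its values were negative in 3 groups, 1 of which passed, and Gpc3 a mean of -0.85 (SE 0.22, adjusted p = 0.00262) although it was higher in ASC1 in the fourth. The median over the 9 members was 1.48, and over all tested genes -0.11. When the Tcf21-containing libraries were left out, a fit whose share of all genes is not given here, 7 of the 9 passed, Icam1 (0.21) and Apod (0.30) dropping out. Without the libraries against their sex label only Steap4 (3.18) and Fmo2 (1.60) did. Leaving out ovariectomized female ASC1 library L moved Apod to 0.47 and leaving out P moved Sparcl1 to 0.70, neither of which passed. Sparcl1 did not pass either without the libraries under 300000 counts (0.42).

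Castrated and control males were compared in each population and in their ASC1-ASC2 differences, and these comparisons share the control male libraries. Control libraries carry the letters A to H and operated ones I to P, so surgery and letter cannot be told apart. The castrated male ASC1 libraries held 13 to 97 Xist and 0 to 4 Y reads, against 0 to 82 and 5 to 77 in control male ASC1. The part of this in the differences was not tested. In ASC1, Vit, Steap4 and Apod were lower in castrated than in control males, 3 of the 9 members against 2.36% of all tested genes. Vit fell by 2.31 on the log2 scale (SE 0.36, adjusted p = 2.11e-05), Steap4 by 1.83 (SE 0.32, adjusted p = 0.000196) and Apod by 1.31 (SE 0.35, adjusted p = 0.0234). For each of the 3 genes all castrated male ASC1 libraries lay below all control male ASC1 libraries, which 0.473% of all tested genes did. In ASC2 only Apod was lower (fell by 1.07, SE 0.32, adjusted p = 0.0306; 6.96% of tested genes passed). No member passed the test of a change in the ASC1-ASC2 difference, in which 2.41% of genes did. The members nearest to the threshold were Vit (-1.49, SE 0.50, adjusted p = 0.0985) and Icam1 (1.25, SE 0.42, adjusted p = 0.103). With no filter on low counts, 4 members passed in ASC1. Without the Tcf21-containing libraries (4 control and 2 castrated male ASC1 libraries left) no gene of the whole table passed in ASC1, the values being -2.63 for Vit, -1.86 for Steap4 and -1.31 for Apod. Among the Tcf21-containing libraries alone (3 control and 6 castrated) 6 members passed, these 3 included, where 11.9% of all tested genes did. Apod in ASC1 was also lost without the libraries under 300000 counts (-1.30). By the cut of 20 Xist reads, 7 of the 8 castrated male ASC1 libraries went against their sex label. The test without such libraries rested on 1 castrated library, P, which itself held 13 Xist reads and 0 Y reads.

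**Figure D3:**
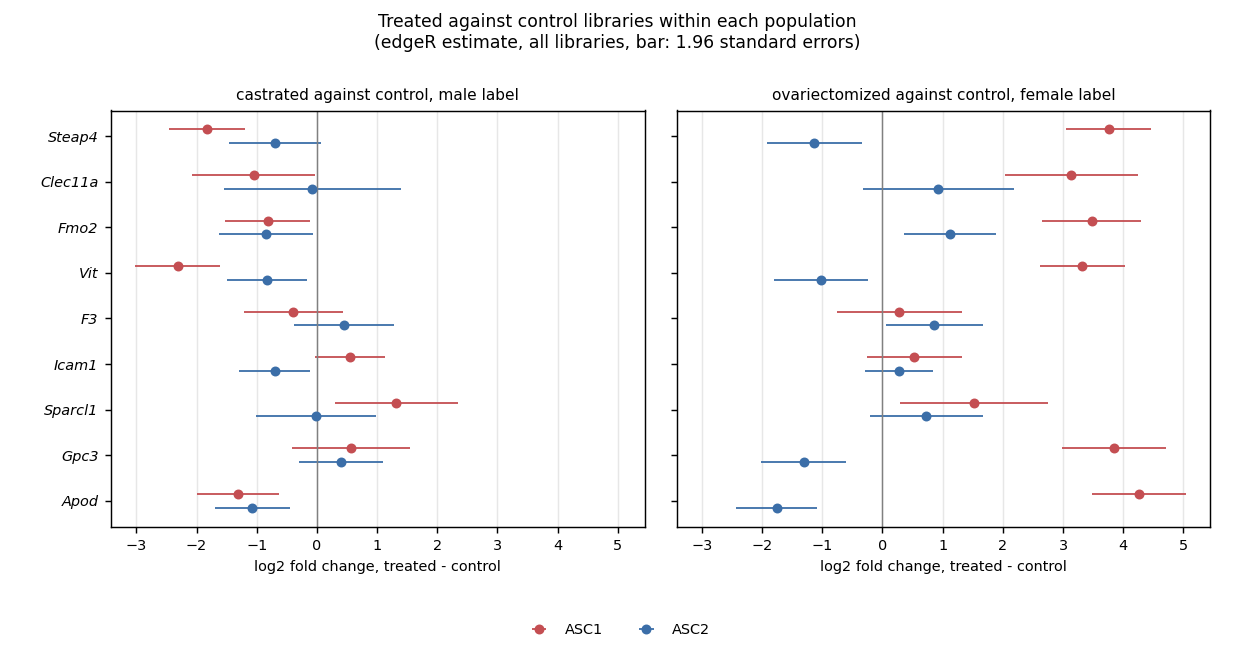
Log2 fold change of castrated against control males and of ovariectomized against control females for the 9 tested members in ASC1 (red) and ASC2 (blue); bars are 95% intervals from the SE. In castrated male ASC1, Vit, Steap4 and Apod, which passed the test, lie left of 0. Clec11a (-1.05), Fmo2 (-0.82) and F3 (-0.39) also lie left of 0 but did not pass. In ovariectomized female ASC1, Clec11a, Fmo2, Apod, Vit, Steap4 and Gpc3 lie between 3.14 and 4.26.

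In females, whose comparisons share the control libraries, the ASC1 libraries of ovariectomized animals held more of 6 of the 9 members than those of controls, in a comparison in which 34.8% of all tested genes passed and the median of all genes was -0.34. The differences were 4.26 for Apod (SE 0.40, adjusted p = 8.42e-13), 3.85 for Gpc3 (SE 0.44, adjusted p = 4.12e-10), 3.76 for Steap4 (SE 0.36, adjusted p = 1.52e-12), 3.48 for Fmo2 (SE 0.42, adjusted p = 1.41e-09), 3.32 for Vit (SE 0.36, adjusted p = 9.96e-11) and 3.14 for Clec11a (SE 0.56, adjusted p = 1.01e-05). All 3 ovariectomized libraries lay above all 8 control libraries for each of these genes, as they did for 7.8% of all tested genes. F3, Icam1 and Sparcl1 did not pass. In ASC2 the direction was the opposite for the 2 members that passed, against 2.09% of all genes: Apod fell by 1.76 (SE 0.34, adjusted p = 0.00132) and Gpc3 by 1.31 (SE 0.36, adjusted p = 0.0338). The change of the ASC1-ASC2 difference with ovariectomy passed for Apod (6.02, SE 0.53, adjusted p = 1.28e-13), Gpc3 (5.17, SE 0.57, adjusted p = 1.42e-10), Steap4 (4.89, SE 0.54, adjusted p = 1.41e-10), Vit (4.34, SE 0.54, adjusted p = 4.11e-09) and Fmo2 (2.36, SE 0.59, adjusted p = 0.00133), against 34.8% of all genes. Clec11a lay just outside the threshold (2.21, SE 0.92, adjusted p = 0.0536). It passed with RLE scaling (2.31), no count filter (2.20), filterByExpr (2.26), DESeq2 (2.30) and only the groups compared (2.23). Sparcl1 in ASC1 (1.52) likewise passed with RLE scaling (1.62), no count filter (1.52), filterByExpr (1.54) and only the groups compared (1.5). Leaving out any of the 3 ovariectomized female ASC1 libraries left these 6 and 5 members past the threshold. Without library L, Sparcl1 (1.9) also passed in ASC1, and Clec11a (2.55) in the change of the difference. Without the Tcf21-containing libraries 9 members passed in ASC1, with 2 control libraries left, 8 in the change of the difference, and none in ASC2. The shares of all genes for ASC1 and for the change in that fit are not given here. Those counts therefore say nothing particular to the members. The group labelled ovariectomized and the properties of its 3 ASC1 libraries given above cannot be told apart.

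Between control males and control females, Gpc3 was the only member to pass. It was lower in males in ASC1 (-2.22, SE 0.46, adjusted p = 0.00585; 0.289% of genes passed) and in ASC2 (-1.57, SE 0.36, adjusted p = 0.00326; 6.5% of genes passed). F3 in ASC1 was at -1.36 (SE 0.42, adjusted p = 0.219). No member passed the test of a sex difference of the ASC1-ASC2 difference, in which 0.128% of genes did. Without the libraries against their sex label the Gpc3 differences were -1.31 and -1.37 and did not pass.

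The ovariectomized female ASC1 libraries had the highest group mean of all 10 members. For Clec11a, Fmo2, Apod, Vit, Steap4 and Gpc3 the gap to the next group exceeded the spread over libraries, and for Icam1, F3 and Sparcl1 it did not. The gap of Hsd11b2 exceeded it too, but from 1 to 3 reads per library, too few to detect a difference. F3 in control female ASC1 (8.48 as mean log2(CPM + 1)) came close to the ovariectomized level (9.0). The heatmap of the members shows these 3 libraries apart from the rest. Tbx15, a marker of inguinal progenitors, is drawn beside Tcf21.

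**Figure D4:**
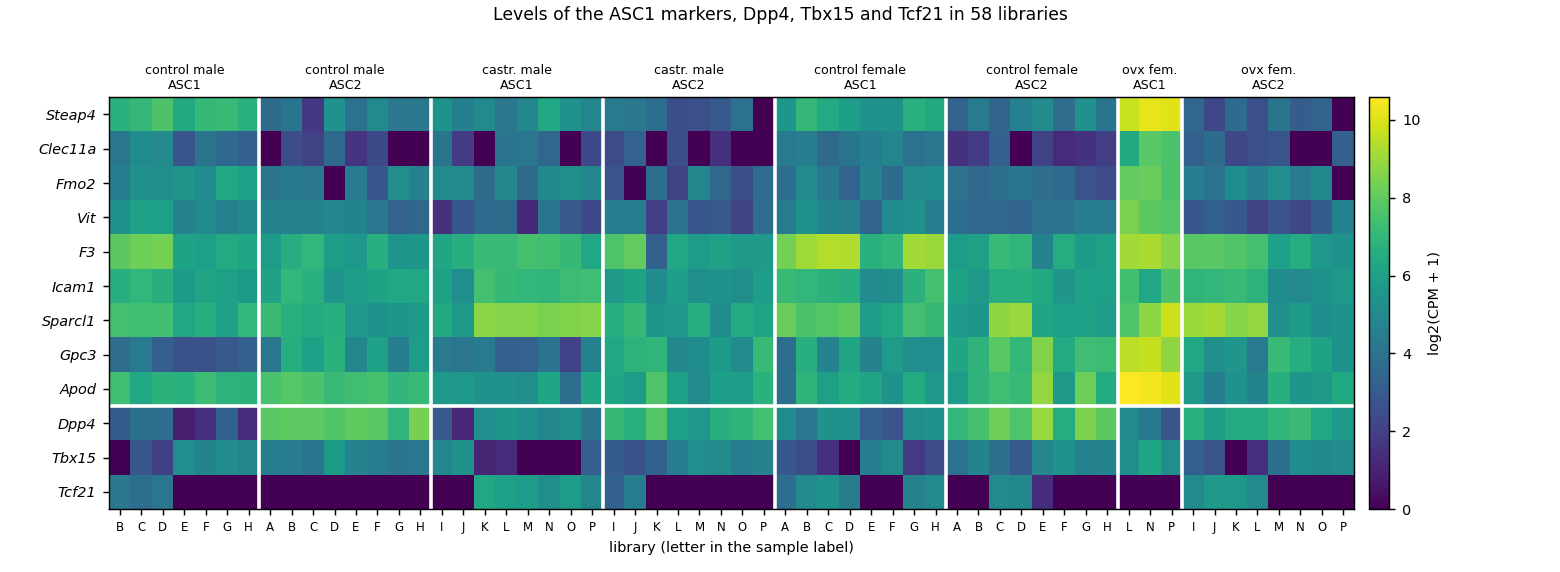
Levels of the 9 tested members, Dpp4, Tbx15 and Tcf21 in the 58 libraries, ordered by group; the colour gives log2(CPM + 1). Dpp4 separates ASC2 from ASC1, and within ASC1 of castrated males Icam1 and Sparcl1 are higher in the 6 libraries that contain Tcf21 than in the other 2.

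The members were unequally correlated. Over the 36 pairs of tested members the Pearson correlation of log2(CPM + 1) over the 58 libraries ran from -0.07 (Icam1 and Gpc3) to 0.77 (Icam1 and Sparcl1), with a median of 0.33. The Icam1 and Sparcl1 correlation was 0.80 over the 26 ASC1 libraries, 0.70 over the 32 ASC2 libraries and 0.61 over the 35 libraries without Tcf21. These libraries share groups and scaling, so the coefficients are descriptions. Among the genes with a mean of at least 5 CPM, the most alike to Sparcl1 was Lpl, the lipoprotein lipase (r = 0.88), which was also first for Icam1 (0.83). Rcn3 (0.85) and Nid2 (0.84) were the most alike to F3, Entpd2 (0.86) and Gdf10 (0.83) to Steap4, Crispld2 (0.71) and Gdf10 (0.70) to Fmo2, and Cxcl12 and Cyp2f2 (both 0.71) to Clec11a. For Apod these were the proteoglycan Dcn (0.91) and the mitochondrial ribosomal RNA mt-Rnr2 (0.88), for Vit Il11ra1 and Fmo1 (both 0.79), and for Gpc3 Itm2a (0.86) and the collagen gene Col14a1 (0.84). The mean of the 9 standardised members was most like Adh1, Entpd2 and Gstm2 (all 0.86), then C2 and Rab3d (both 0.85).

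Lists of related genes were set beside the members by their counts in the mean ASC1-ASC2 difference, where the median of all genes was -0.11 and 5.61% of all genes were higher in ASC1 and 14.7% lower. Of 18 other ASC1 markers 12 were higher in ASC1 and 2 lower (median 1.03), with Gdf10 (2.59), Igfbp3 (2.04) and G0s2 (1.88) highest and Sfrp4 (-1.69) lowest. Of 18 ASC2 markers none was higher and 17 were lower (median -2.26), with Pi16 (-5.63), Bmp7 (-4.05), Efhd1 (-3.86) and Smpd3 (-3.45) lowest. Without the Tcf21-containing libraries these counts were 7 higher and 2 lower, and 0 and 18. Part of both lists comes from markers the study itself uses for these populations, and they are not independent evidence of direction; Lpl, Pparg, Fabp4 and Cd36 stand in both the ASC1 and the adipocyte differentiation list.

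The genes of the pathways around single members are given by their counts, which are to be read against those shares of all genes. They come from the same mean, which holds the ovariectomized female group at equal weight and covers changes of sign. Of 16 tested adipocyte differentiation genes 2 were higher (Lpl 1.09, Fabp4 0.57) and 3 lower (among them Pparg, the master regulator of fat cell formation, at -0.76 and Plin2 at -0.62), with a median of -0.09. Among 7 genes of glucocorticoid handling 3 were higher and 1 lower, led by Hsd11b1 (1.62), which activates glucocorticoids and so opposes Hsd11b2, H6pd (0.84), which supplies its cofactor, Nr3c1 (0.41), the glucocorticoid receptor, and Zbtb16 (-1.60), and the median was 0.01. Around tissue factor, 1 of 10 coagulation genes was higher (Pros1 0.60) and 2 lower (Procr -1.29, F2r -0.71; median -0.33). Of 11 integrin partners of Icam1 and inflammatory genes 1 was higher (Vcam1 0.67) and 3 lower (Cxcl1 -1.32, Ccl2 -1.31, Nfkbia -0.44; median -0.51). The glypican and SPARC families had 3 of 9 higher and 2 lower (median 0), with Smoc2 at 2.39, Spock2 at 1.93, Sparc at 0.64, Spock3 at -3.57 and Gpc1 at -0.97. Of 5 other STEAP and FMO genes Fmo1 was higher (1.2) and Steap1 lower (-0.58), and their median was -0.28.

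Markers of other cells and states were counted in the same way. Of 6 fibroblast markers 4 were higher in ASC1 and 1 lower (Lum 0.91, Col1a1 0.78, Pdgfra 0.48, Cd34 -1.13). Over the treatment groups these markers split, with none higher and 2, 1 and 3 lower in control males, castrated males and control females, and all 6 higher in ovariectomized females. Of all 12464 tested genes, 661, 576, 321 and 1613 were higher in ASC1 in the same order of groups, and 858, 557, 441 and 2805 lower. Of 10 immediate early genes none was higher and 7 were lower in the mean, and this list too turned in ovariectomized females, where 6 were higher and none lower. These 2 lists turned in the group in which Apod and Gpc3 turned, and their part in that was not tested. Of the tested endothelial, mural, macrophage, mesothelial, mammary epithelium and mature adipocyte markers, 1 of 6, 1 of 7, 0 of 5, 0 of 5, 0 of 4 and 0 of 2 were higher, and 0, 1, 2, 1, 0 and 0 lower. Among the 5 sex transcripts 1 was higher in ASC1 and none lower. The summed mural markers had a median of 2190 CPM in the Tcf21-containing libraries and 722 CPM in the others, mesothelial markers 71.4 and 26.7 CPM, and adipocyte differentiation genes 2960 and 1850 CPM. The part of these cells in the differences of Icam1, F3 and Sparcl1 was not tested.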

How the data were processed

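The authors trimmed the Smart-seq3 reads with NGmerge, checked alignments with STAR 2.7.10a against GRCm39, quantified transcripts of Gencode vM32 with Salmon 1.9.0, added UMI and other reads per gene and removed libraries with under 8500 detected genes. They deposited estimated counts without normalization, of which 15.0% of values above 0 were not whole. These expected counts were rounded. Symbols came from an older Gencode table by Ensembl identifier (52029 of 56953 genes). Tested genes had 5 or more reads in over 3 libraries, and were fitted with edgeR 4.0.16 (TMM scaling, quasi-likelihood F test, 8 groups fitted together, 14 contrasts, Benjamini-Hochberg threshold 0.05) in R 4.3.3, after the script was tested on simulated data. The biological coefficient of variation was 35.6%. SEs were derived from the fold change and the F statistic. CPM values are edgeR's on scaled library sizes, and the log scale is log2(CPM + 1). Python 3.11.15 was used for descriptions and figures.

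The members and the lists of other genes were chosen with earlier results of these data known. Named beside the members are Dpp4, up to 4 genes a list with the largest mean ASC1-ASC2 differences among those that passed, and the 2 genes most like each member and the 5 most like their mean. All libraries were taken as separate samples of their group, since no 2 had counts that agreed within sampling noise. The study used 8 mice per treatment group, so ASC1 and ASC2 libraries can share an animal, but the labels do not say which do. Their letters, which may be plate positions, were tried as a block, and p-values measure only the spread between these libraries, which may be technical. A library was taken to go against its sex label if labelled male with at least 20 Xist reads or female with at least 3 reads of Y genes. The alternatives were 14 planned settings (DESeq2 1.42.0 and limma 3.58.1 with voom among them), and 3 on Tcf21 that were chosen after seeing the data. Promoters of Sparcl1, Vit and Hsd11b2 are not shown.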

Additional observations from a re-analysis of the deposited data

Results flagged for a closer look

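Among the 63 sets of 4 to 10 libraries tested with Dixon's criterion (1 gene in 1 group), 8 held a library that lay apart from the rest; chance gives about 1 in 20. For Fmo2 these were control male ASC2 library D at 0 CPM (others 6.36 to 36.2) and ovariectomized female ASC2 library P at 0 CPM (others 15.4 to 35.5). For Apod they were castrated male ASC1 library O at 13.3 CPM (others 37.9 to 75.9) and control female ASC1 library A at 13.1 CPM (others 42.1 to 116), which held 4 and 2 reads of the gene. For Steap4 they were control male ASC2 library C at 2.2 CPM (others 11.7 to 40.2), castrated male ASC2 library P at 0 CPM (others 4.79 to 19.7) and ovariectomized female ASC2 library P at 0 CPM (others 3.84 to 16). For Vit the ovariectomized female ASC2 library P stood high, at 25.7 CPM (others 3.29 to 8.64), from 3 reads. This library P accounts for 3 of the 8 and has the fewest counts of all libraries, 106562.

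The ASC1-ASC2 difference changed with ovariectomy for 5 members, by an interaction term in the edgeR model: Apod by 6.02, Gpc3 by 5.17, Steap4 by 4.89, Vit by 4.34 and Fmo2 by 2.36 on the log2 scale. In each case the 3 ovariectomized female ASC1 libraries moved up. The part of their distinct RNA composition in these values was not tested.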

How the results depend on the processing

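The counts of members that passed were within 1.5 times the values reported under RLE scaling, library size scaling, filterByExpr, robust estimation and DESeq2 in all 14 comparisons. Except where the next paragraph gives counts of all genes, the member counts here stand without the share of all genes in that fit. These counts therefore say nothing particular to the members. Without the libraries against their sex label they were 3 in control males, 0 in castrated males, 0 in control females, 2 in the mean of the 4 groups, 0 for castration in ASC1, 0 for ovariectomy in ASC2, and 0 for the sex label in ASC1 and 0 in ASC2. Without the Tcf21-containing libraries they were 3 in control males, 0 in castrated males, 1 in control females, 0 and 2 for castration in ASC1 and ASC2, 8 for the change of the difference with ovariectomy, 0 for ovariectomy in ASC2 and 0 for the sex label in ASC1. With a term for these libraries they were 3 in castrated males, 1 for the change with castration, 3 for castration in ASC2, 9 for the change with ovariectomy and 1 for the change with sex label. Among Tcf21-containing libraries alone 6 passed for castration in ASC1 and 2 for the sex label in ASC1. For ovariectomy in ASC2, 1 passed when only the groups compared were fitted and 1 without libraries under 300000 counts. For the sex label in ASC1, 2 passed with no count filter and 0 with voom and a random block. Values that turned sign and then passed the test were F3 in castrated males (-0.68) and Sparcl1 in control females (-1.22) among Tcf21-containing libraries. The change of F3 with ovariectomy (-0.58) also did, being 2.14 without these libraries and 1.49 with the term. Other values turned sign in the planned settings without passing. Among them, in control females Icam1 ran from -0.73 to 0.58 and Sparcl1 from -1.88 to 0.58. Sparcl1 in ovariectomized females ran from -0.71 to 1.77 and F3 in castrated males from -0.31 to 0.84. F3 for the sex label in ASC1 ran from -1.41 to 0.73. Their cause was not tested. Leaving out 1 ovariectomized female ASC1 library gave 7 members in each case for that group, 8 to 9 for the mean, 5 to 6 for the change with ovariectomy and 6 to 7 for ovariectomy in ASC1.

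Counts of all genes that passed moved more. In castrated males 1133 genes passed, against 73 without Tcf21-containing libraries and 12 without those against their sex label, and in control females 762, 243 and 94. For control males these were 1519, 568 and 936, for castration in ASC1 294, 0 and 5, and for ovariectomy in ASC2 261, 113 and 3. In ovariectomized females 2521 genes passed without library L, against 4418 with it. With library size scaling the median of all genes in that comparison was -0.65, against -0.37 with TMM and -0.28 with RLE.

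Whether the letters of the libraries pair them was not established. The labels do not say that a letter is an animal, and the correlation of same-letter deviations was 0.05 to 0.27 in control males, -0.26 to 0.06 in castrated males, -0.08 to 0.39 in control females and 0 to 0.04 in ovariectomized females, and 3 of 7, 1 of 8, 3 of 8 and 1 of 3 libraries correlated best with their own letter. With the replicate block 4 members passed in control males (F3 at 0.95 and Vit at 0.95 did not) and 5, 5 and 7 in the other groups, 9 in the mean, 0 for the change with castration and 5 with ovariectomy. Without libraries under 300000 counts 6 calls of members were lost, of F3 (in 2 groups), Fmo2, Sparcl1, Apod and Gpc3 (-1.35 for ovariectomy in ASC2), and Hsd11b2 was too low to test.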
